A study of Oryza sativa with 3 samples.

Results

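The regions described here are the OsWRKY11-Halo peaks around the 12 rice centromeres. A peak was a member when its summit lay within 1.5 Mb of the approximate centromere of its chromosome, a choice by position that used no measured value. The positions were 16.7, 13.6, 19.4 and 9.7 Mb on chromosomes 1 to 4, then 12.4, 15.3, 12.1 and 12.9 Mb on chromosomes 5 to 8. They were 2.8, 8.2, 12 and 11.9 Mb on chromosomes 9 to 12. The resulting 12 windows of 3 Mb made up 36 Mb, or 9.65% of the 373 Mb of chromosomes measured up to their last peak. Replicate 1 had 1152 of its 15980 peaks there (7.21%), and replicate 2 had 1543 of its 21447 (7.19%).

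A rice centromere is built on arrays of the CentO satellite and on centromeric retrotransposons, and its functional core carries nucleosomes with the histone variant CENH3. The DNA around it is rich in transposable elements and poor in genes. WRKY proteins are plant transcription factors known to bind the W-box, an element found in many promoters of stress and developmental genes. In DNA affinity purification sequencing (DAP-seq) a tagged protein made in vitro meets fragmented, naked genomic DNA, so that nucleosomes of the living cell play no part in the measurement.

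The series comprised 2 libraries of OsWRKY11 fused to the Halo tag (replicates 1 and 2) and 1 library of green fluorescent protein on the same tag (GFP-Halo), all reacted with genomic DNA of rice seedlings of the cultivar Nipponbare. Each OsWRKY11-Halo library has a deposited peak list, called against the same GFP-Halo library, so that the lists share their control. The labels do not say that the OsWRKY11-Halo reactions were separate preparations, and their spread may be technical. The labels' extraction text also mentions fixed shoots of plants with a Myc-tagged OsWRKY11 driven by a ubiquitin promoter, a step of another kind of assay. Depth could not be stated, with read totals and genome build not given in the sources used here. A peak's pileup counts the OsWRKY11-Halo fragments that cover its summit. Its fold enrichment sets that pileup against a background from the GFP-Halo library. Under 58.2% of peaks in replicate 1 and 52.8% in replicate 2, this background was the lowest value of the list, 2.91 and 3.06 fragments. A value shared by so many peaks does not describe the sequence around a single peak, and there the fold follows the pileup alone. Intervals below are 95% intervals that cover counting error only, and as neighbouring peaks are not independent they are too narrow.

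Peaks were sparser around the centromeres in both lists. Densities are per Mb of all the sequence, as the length over which reads could be placed was not known. Replicate 1 had 32.0 peaks per Mb in the windows (exact Poisson interval 30.2 to 33.9), against 44.0 per Mb in the rest of the chromosomes (43.3 to 44.7). The density ratio was 0.727 (exact conditional binomial interval 0.685 to 0.772). Replicate 2 had 42.9 peaks per Mb in the windows (40.7 to 45.1), against 59.0 per Mb in the rest (58.2 to 59.9), a ratio of 0.726 (0.689 to 0.764). Replicate 2 held more peaks both in the windows and in the rest, and its ratio differed from that of replicate 1 by less than the width of either interval. With the expected number taken from each chromosome's own rest, the ratios were 0.727 and 0.723.

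Inside the windows, the density was lower in each bin nearer to the stated centromere. Within 0.5 Mb it was 26.9 peaks per Mb in replicate 1 (24.1 to 30.0) and 34.8 in replicate 2 (31.6 to 38.3). From 0.5 to 1 Mb it was 32.9 and 45.8 per Mb, and from 1 to 1.5 Mb it was 36.2 and 48.0 per Mb. The innermost values lay below both of their neighbours, and the interval of the innermost bin overlapped that of the next bin in replicate 1 and lay below it in replicate 2. The ring from 1.5 to 3 Mb, the stretch most like the windows in position, held 40.1 peaks per Mb in replicate 1 and 54.6 in replicate 2. Against that ring the density ratio of the windows was 0.798 (0.738 to 0.863) in replicate 1 and 0.785 (0.734 to 0.840) in replicate 2. Outside the windows the order was not steady: replicate 2 had 54.6 per Mb from 1.5 to 2 Mb and 50.9 from 2 to 2.5 Mb, and both lists were denser from 2.5 to 3 Mb (42.5 and 58.3) than from 3 to 3.5 Mb (41.2 and 55.6). From 4.5 to 5 Mb the densities were 48.3 and 67.1 per Mb.

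**Figure D1:**
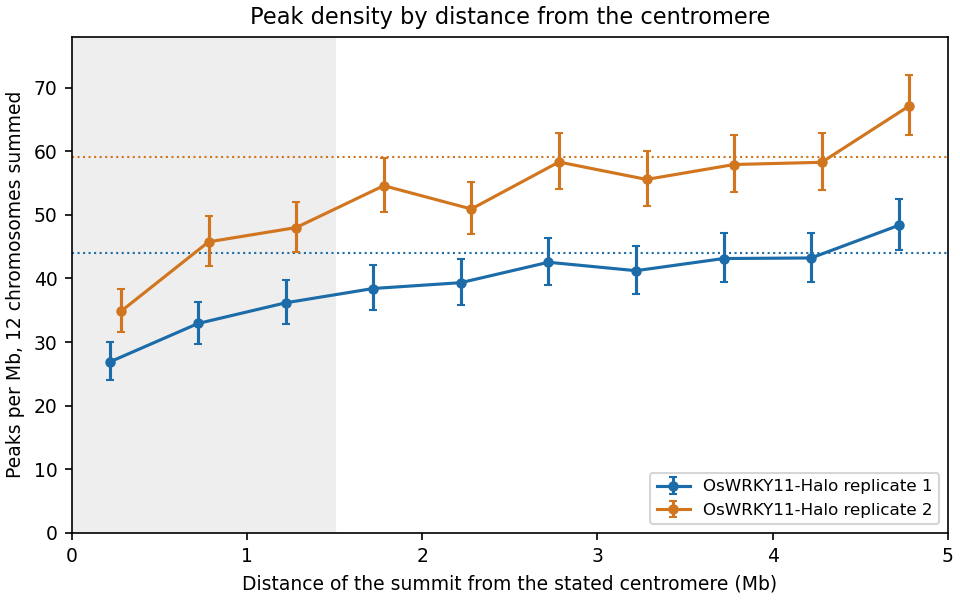
Peaks per Mb (y axis) in bins of 0.5 Mb by distance of the summit from the stated centromere in Mb (x axis), summed over the 12 chromosomes. Points are the lists of replicates 1 and 2, bars exact 95% Poisson intervals, dotted lines the density in the rest of the chromosomes and the grey area the windows. The innermost bin has the lowest value of each list, 26.9 and 34.8 per Mb.

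The lists hold no satellite or CENH3 signal that could mark a centromere, so the windows rest on the approximate positions alone. The whole megabase with the fewest peaks of its chromosome had its middle within 1.5 Mb of the stated centromere on 8 of the 12 chromosomes in replicate 1 and on 8 of 12 in replicate 2, with a tie counted only when all tied megabases did. Of 541 overlapping stretches of 3 Mb taken away from the windows at steps of 0.5 Mb, 12 in replicate 1 (2.22%) held no more peaks than the window of their own chromosome. In replicate 2 there were 11 such stretches (2.03%). They lay on chromosomes 2 and 12 in replicate 1, and on chromosomes 2, 3 and 4 in replicate 2.

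The windows were then compared with each other. Every one of the 12 windows had fewer peaks per Mb than the rest of its chromosome, in both lists. In replicate 1 the median ratio was 0.749 and the range 0.481 to 0.893. In replicate 2 the median ratio was 0.717 and the range 0.597 to 0.808. The interval of the ratio lay below 1 for 11 windows in replicate 1 and for all 12 in replicate 2. Each window also had fewer peaks per Mb than the arm on either side of it taken apart, on 12 of 12 chromosomes in both lists.

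Chromosome 11 had the sparsest window in both lists. It held 69 peaks in replicate 1, or 23.0 per Mb (17.9 to 29.1), against 47.9 per Mb in the rest of chromosome 11, a ratio of 0.481 (0.372 to 0.613). In replicate 2 it held 110 peaks, or 36.7 per Mb (30.1 to 44.2), against 61.5 per Mb in the rest, a ratio of 0.597 (0.487 to 0.724). The longest distance between neighbouring summits in this window, with the window edges counted as ends, was 287814 bp in replicate 1 and 160820 bp in replicate 2. In replicate 2 several other windows had a longer one, up to 303957 bp on chromosome 12. The chromosome 4 window followed with 28.0 peaks per Mb in replicate 1, against 40.4 in the rest of the chromosome, and with 38.3 in replicate 2, against 53.6. The rest of chromosome 4 was itself the sparsest of the 12 in both lists.

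The other end of the order was not the same in the lists. The chromosome 12 window was the densest in replicate 1 with 39.3 peaks per Mb (32.6 to 47.1), against 44.0 in the rest, and its ratio of 0.893 (0.732 to 1.08) was the only one with an interval that reached 1. In replicate 2 the same window had 44.0 peaks per Mb, against 62.5 in the rest, a ratio of 0.703 (0.584 to 0.841). The chromosome 10 window was the densest in replicate 2 with 50.7 per Mb (42.9 to 59.4), against 62.7 in the rest, and had 34.7 per Mb in replicate 1, against 44.8. The chromosome 2 window had 37.3 per Mb in replicate 1, against 45.7 in the rest, and 45.0 in replicate 2, against 59.4. The remaining 7 windows, on chromosomes 1, 3 and 5 to 9, lay between 29.3 and 34.7 per Mb in replicate 1 and between 39.3 and 47.0 per Mb in replicate 2. In replicate 1 the interval of the chromosome 11 window lay below those of chromosomes 2 and 12, and windows next to each other in the order had overlapping intervals. In replicate 2 the intervals of all 12 windows overlapped. The variance of the 12 counts was 1.77 times their mean in replicate 1 and 1.03 times in replicate 2. The replicate 2 value depended on the width, and was 2.62, 1.68 and 1.61 times with windows of 0.5, 1 and 2 Mb to either side.

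**Figure D2:**
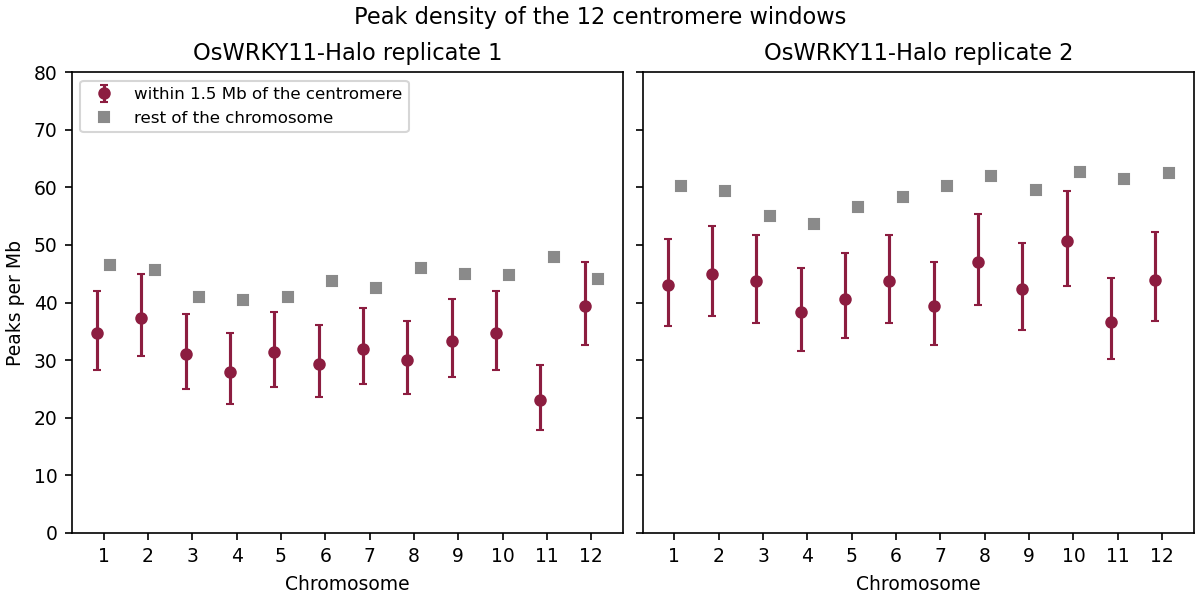
Peaks per Mb (y axis) on each of the 12 chromosomes (x axis), with the centromere window left of the rest of the chromosome, for replicate 1 and replicate 2. Bars are exact 95% Poisson intervals of the window. Each window lies below the rest of its chromosome, and the window of chromosome 11 is lowest in both lists, at 23.0 and 36.7 per Mb.

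The typical peak of a window looked like the typical peak elsewhere. The median pileup was 11 fragments in the windows and 11 in the rest, in both lists. The median fold enrichment was 2.81 in the windows and 2.81 in the rest in replicate 1, and 2.71 in the windows and 2.71 in the rest in replicate 2. The upper quartile of the fold was 3.07 in the windows against 3.26 in the rest in replicate 1, and 2.95 against 3.13 in replicate 2. The 90th percentile was 3.58 in both parts in replicate 1, and 3.38 against 3.45 in replicate 2. In the bins from 1.5 to 5 Mb the upper quartile was 3.07 to 3.20 in replicate 1 and 2.95 to 3.18 in replicate 2. A low upper quartile was thus not particular to the windows. Low pileups give few possible values of the fold, so equal medians are a coarse comparison.

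By class of fold enrichment, the gap was wider above a fold of 3 than below it. In replicate 1 the density ratio was 0.852 (0.743 to 0.972) at folds from 2 to 2.5, 0.767 at 2.5 to 3, 0.647 at 3 to 3.5 and 0.582 (0.467 to 0.717) at 3.5 to 4. In replicate 2 it was 0.792 (0.723 to 0.866), 0.758, 0.628 and 0.548 (0.421 to 0.702) over the same classes. The intervals of the weakest class and of the class from 3.5 to 4 did not overlap in either list. At folds of 4 and above the windows held 44 peaks of replicate 1, at a ratio of 0.681 (0.490 to 0.925), and 15 peaks of replicate 2, at a ratio of 0.400 (0.222 to 0.669). In replicate 1, 335 window peaks (29.1%) passed a q-value bound of 0.05, against 30.0% in the rest and 29.9% of the whole list. In replicate 2, 407 window peaks (26.4%) passed it, against 28.4% in the rest and 28.2% of the list. Both shares were near the background, and the odds ratios of windows over rest were 0.956 (0.835 to 1.09) and 0.904 (0.802 to 1.02).

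**Figure D3:**
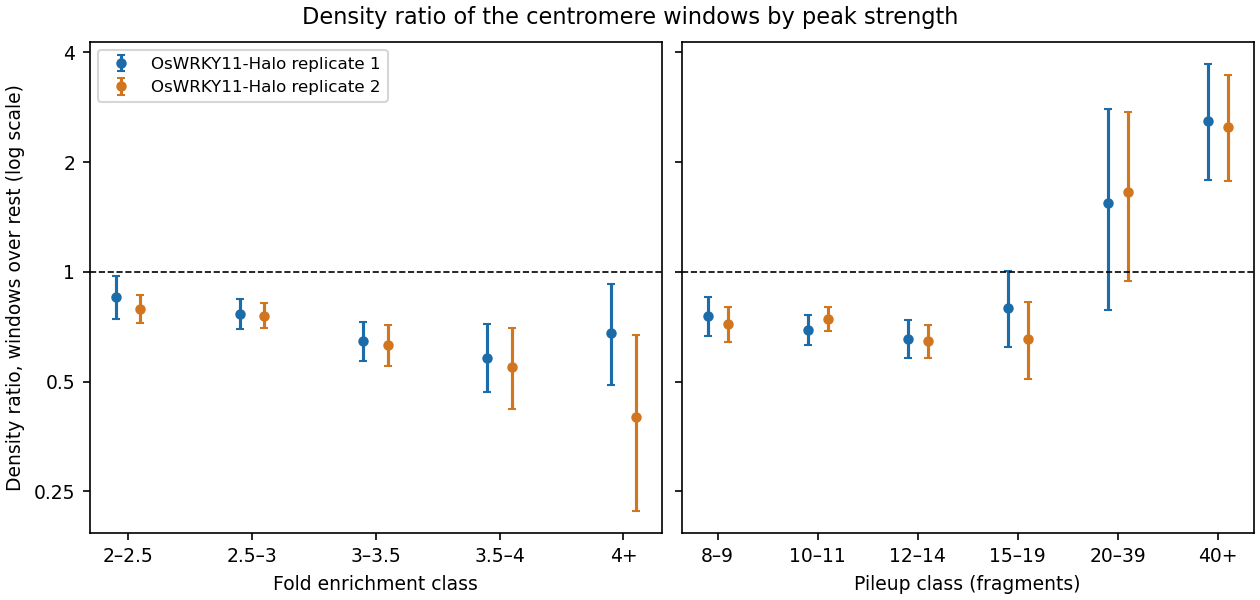
Density of peaks in the windows over that in the rest of the chromosomes (y axis, log scale) by class of fold enrichment (left) and of pileup in fragments (right), for replicates 1 and 2. Bars are exact conditional 95% intervals and the dashed line marks a ratio of 1. The ratio is below 1 in all fold classes and above 1 for pileups of 20 to 39, with intervals that reach 1, and of 40 and above, at 2.60 and 2.5.

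Peaks near the centromeres stood more often on a raised GFP-Halo background. The lowest background of the list lay under 54.2% of window peaks in replicate 1, against 58.5% in the rest and 58.2% in the whole list (odds ratio 0.838, conditional exact interval 0.742 to 0.948). In replicate 2 it lay under 48.5% of window peaks, against 53.2% in the rest and 52.8% in the whole list (odds ratio 0.831, 0.748 to 0.923). The share was lowest next to the centromere: within 0.5 Mb it was 44.0% in replicate 1 and 39% in replicate 2. From 1 to 1.5 Mb it was 60.1% and 53.0%, above the share of the rest in replicate 1 and near it in replicate 2. By chromosome, the window share was below that of the rest on 8 of 12 in replicate 1 and on 10 of 12 in replicate 2. The chromosome 4 window stood apart with 33.3% and 33.9%, against 58.3% and 52.4% in the rest of chromosome 4. Without chromosome 4 the odds ratio in replicate 1 was 0.895 (0.788 to 1.02). The density of peaks on the lowest background was 0.674 (0.620 to 0.731) times that of the rest in replicate 1 and 0.663 (0.615 to 0.714) times in replicate 2. For peaks on a raised background the ratios were 0.803 (0.734 to 0.878) and 0.797 (0.741 to 0.857). Both kinds of peak were counted per Mb of all the sequence, as the length on each background is not known. These ratios therefore do not compare stretches of like background.

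Peaks with many fragments went the other way. A pileup of at least 40 was reached by 40 window peaks of replicate 1 (3.47%), against 144 peaks or 0.971% in the rest and 1.15% of the whole list, and by 47 window peaks of replicate 2 (3.05%), against 176 peaks or 0.884% in the rest and 1.04% of the list. The odds ratios were 3.67 (2.5 to 5.27) and 3.52 (2.49 to 4.91). Such peaks had a density in the windows that was 2.60 (1.78 to 3.71) and 2.5 (1.77 to 3.47) times that of the rest. They were absent from 3 windows in replicate 1 and from 2 windows in replicate 2. The chromosome 10 window held 0 in both lists, against 36 and 50 in the rest of that chromosome. Of the 40 and 47, 26 in each list lay in the windows of chromosomes 2 and 4. Without these chromosomes, an alternative chosen after seeing the data, the odds ratios were 1.38 (0.731 to 2.41) in replicate 1 and 1.68 (1.01 to 2.66) in replicate 2. All high-pileup peaks had a raised GFP-Halo background, in the windows and in the rest. The median was 16.2 times the lowest in the windows, against 15.9 times in the rest, in replicate 1, and 15 times, against 14.6 times, in replicate 2. Their median fold enrichment in the windows was 2.32 and 2.27, against 2.43 in the rest in both lists. All 40 of replicate 1 and 46 of the 47 of replicate 2 lay within 1 Mb of the centromere, in bins of 13 and 27 peaks and of 13 and 33. Outside the windows the bin from 2.5 to 3 Mb also held many, 28 in replicate 1 and 38 in replicate 2, against 0 and 1 in the bin from 1 to 1.5 Mb.

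These peaks came largely in close groups. On chromosome 4, 12 peaks of replicate 1 with pileups from 91 to 346 lay between 9114001 and 9184681, and 14 peaks of replicate 2 with pileups from 94 to 367 lay between 9103140 and 9184671. Their median folds were 2.44 and 2.33, and 8 in each list had a partner in the other. On chromosome 2, 10 peaks of replicate 1 between 14239831 and 14288549 and 10 of replicate 2 between 14240660 and 14289046 had pileups from 66 to 184 and from 68 to 210. Of these, 4 in each list had a partner. Between the ends of these chromosome 2 and 4 groups, 0 peaks of a lower pileup were called. No peak of either list had a fold below 2.00. The chromosome 2 group peaks stood on at least 7.62 and 10.1 times the lowest background, in replicates 1 and 2. For the chromosome 4 group this was 13.2 and 13.8 times. On such a background a pileup under 40 cannot reach that fold. The background of the sequence between these peaks was not known, so no trait of the groups can be read from the count of 0. Smaller groups of 3 peaks lay on chromosome 2 near 13298110 in replicate 1 and on chromosome 5 from 12888519 to 12891335 in replicate 1. In replicate 2 the chromosome 5 group was spread from 12888522 to 12985729, with 6 peaks of lower pileup between. In replicate 2, groups of 3 also lay on chromosome 9 from 2495943 and on chromosome 12 from 11283092. Both chromosome 5 groups begin with a shared peak with pileups of 366 and 330 and folds of 3.30 and 2.81.

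**Figure D4:**
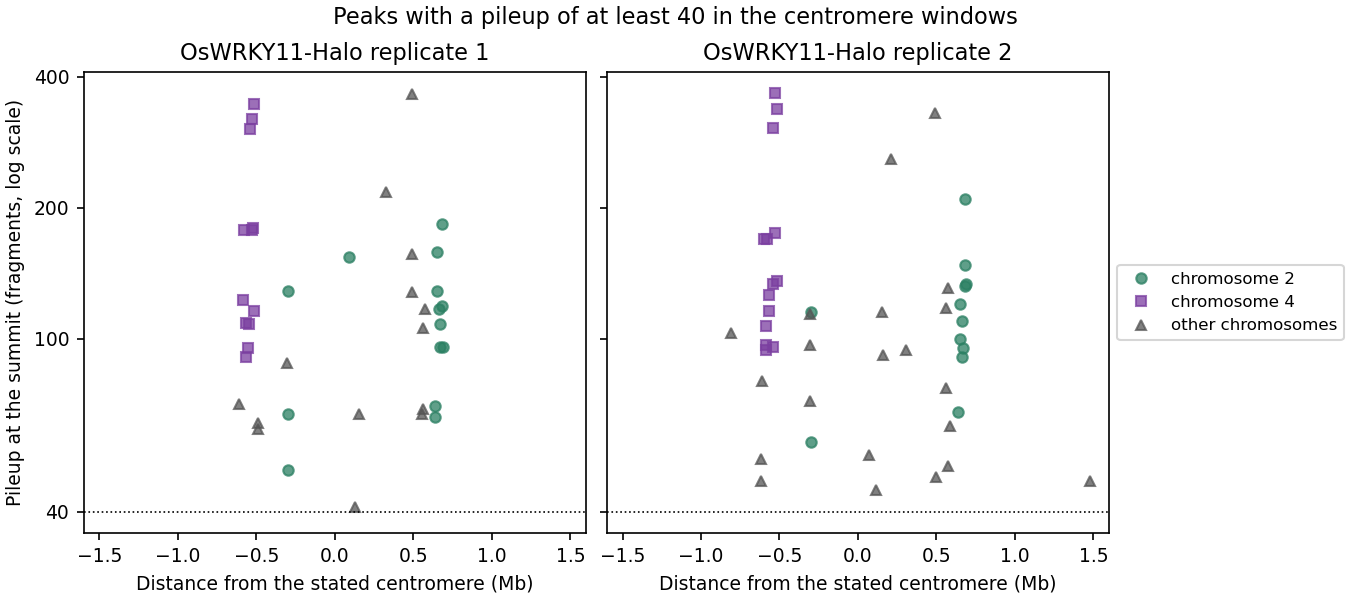
Pileup at the summit in fragments (y axis, log scale) against distance from the stated centromere in Mb (x axis) for the 40 and 47 window peaks with a pileup of at least 40 (dotted line) in replicates 1 and 2, with negative distances at lower coordinates. Circles are chromosome 2, squares chromosome 4 and triangles the other chromosomes. The chromosome 4 group and the larger chromosome 2 group form narrow columns on opposite sides of the centromere, further chromosome 2 peaks lie on the side of the chromosome 4 group, and the highest pileups are 366 and 367.

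A replicate 1 peak counted as found in both lists when a replicate 2 peak overlapped it by at least 50% of the shorter peak. In the windows, 166 of the 1152 replicate 1 peaks were so matched (14.4%, Wilson interval 12.5% to 16.6%), against 17.8% in the rest (17.2% to 18.4%) and 17.6% of the whole list. In the other direction 168 of 1543 window peaks of replicate 2 had a partner (10.9%, 9.43% to 12.5%), against 13.2% in the rest (12.8% to 13.7%) and 13.1% of the whole list. The odds ratios were 0.778 (0.652 to 0.923) and 0.801 (0.675 to 0.946). The share was below that of the rest on 10 of 12 chromosomes in replicate 1 and on 9 of 12 in replicate 2, and chromosomes 3 and 4 were above it in both lists. The other list was also sparser in the windows, and the part of this in the lower share was not tested. By bin of 0.5 Mb, the partner share inside the windows was 13.6% to 15.4% in replicate 1 and 10.4% to 11.3% in replicate 2. In the bins from 1.5 to 5 Mb it was 11.7% to 18.9% and 8.81% to 14.1%, lowest from 4 to 4.5 Mb in both lists. A low share was thus not particular to the windows, though other bins outside lay above every window bin. Per Mb, the windows held 4.61 shared peaks, against 7.83 in the rest, counted on replicate 1 (ratio 0.589, 0.5 to 0.689).

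The lower share did not hold under every definition of a partner. At an overlap of 50% of both peaks the odds ratios were 0.923 (0.757 to 1.12) and 0.928 (0.763 to 1.12), and their intervals reached 1. By fold class the windows and the rest were alike among weak peaks, with a partner for 11.3% of window peaks against 11.3% in the rest at folds from 2 to 2.5 in replicate 1, and for 8.51% against 7.90% in replicate 2. At folds from 3 to 3.5 the shares were 12% (8.71% to 16.4%) against 19.6% (18.4% to 20.9%) in replicate 1 and 12.6% (9.07% to 17.2%) against 17.6% (16.4% to 18.9%) in replicate 2. At 4 and above, 19 of 44 window peaks of replicate 1 had a partner (43.2%), against 50.6% in the rest, and 7 of 15 of replicate 2 (46.7%), against 42.7%. Among peaks with a pileup of at least 40, 20 of 40 window peaks of replicate 1 had a partner, against 120 of 144 in the rest (odds ratio 0.202, 0.0877 to 0.460). In replicate 2 this was 20 of 47 window peaks, against 120 of 176 in the rest (odds ratio 0.347, 0.169 to 0.704).

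**Figure D5:**
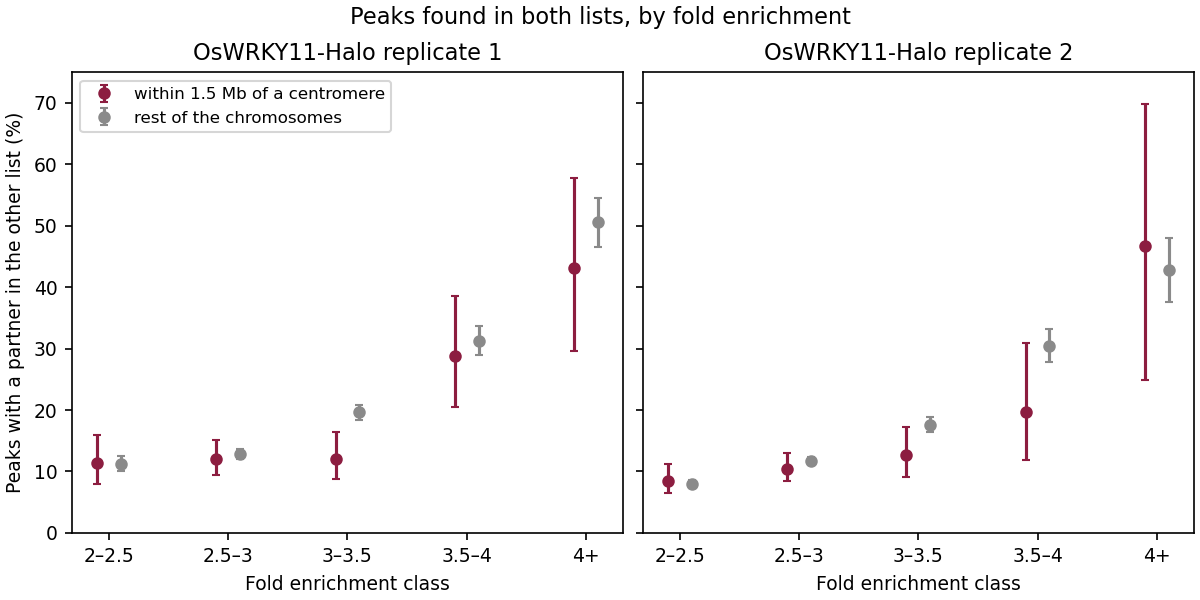
Share of peaks with a partner in the other list in % (y axis) by class of fold enrichment (x axis), for peaks in the windows and, to their right, in the rest of the chromosomes, in replicates 1 and 2. Bars are 95% Wilson intervals. The intervals of windows and rest lie apart only at folds from 3 to 3.5 in replicate 1, at 12% against 19.6%.

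Where a partner existed, its summit was nearer in the windows. The summits of window pairs lay a median of 33.5 bp apart, against 59 bp in the rest, counted on replicate 1, and 134 of the 166 window pairs (80.7%) were within 100 bp, against 69.8% of the rest (odds ratio 1.81, 1.21 to 2.78). Without pileups of 40 or more, the median distances were 43 bp in the windows and 62 bp in the rest. Long peaks were rarer: 300 bp or more was reached by 5.47% of window peaks in replicate 1, against 9.05% in the rest (odds ratio 0.581, 0.441 to 0.755), and by 6.03% in replicate 2, against 8.42% (odds ratio 0.698, 0.556 to 0.866). The pairs were not matched for peak length, and the part of length in the nearer summits was not tested.

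Of the 166 shared window peaks, 55 passed the q-value bound of 0.05 in both lists, 38 had a fold of at least 3 in both, 5 of at least 4 and 2 of at least 5. These 5 lay on chromosomes 10, 4, 2 and 6. The coordinates are those of the deposited lists, and no gene is named since no annotation in their build was used. The strongest, on chromosome 10 from 7646355 to 7647196, had folds of 8.19 and 7.14 (7.66 ± 0.743, mean ± SD, n = 2) and pileups of 31 (exact Poisson interval 21.1 to 44.0) and 28 (18.6 to 40.5). Its background was the lowest of the list in replicate 1 and in replicate 2. It lay 553 kb from the stated centromere, and its fold is the highest of the whole replicate 1 list. Its peaks were 842 and 266 bp long, and they did not count as shared at an overlap of 50% of both peaks.

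The next, on chromosome 4 from 9156287 to 9156600, had folds of 6.32 and 6.03 (6.17 ± 0.208, SD, n = 2). Its summit was at 9156424 in either list. The peak lies inside the chromosome 4 group of high pileups, at pileups of 303 and 305 on a background 16.2 and 16.3 times the lowest. Its fold was the highest of that group in both lists, beside group medians of 2.44 and 2.33. The site on chromosome 2 at 13299315 to 13299592 had folds of 5.72 and 4.79 (5.25 ± 0.659, SD, n = 2), pileups of 67 and 58, and summits 1 bp apart. Its background was 3.75 and 3.70 times the lowest.

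Chromosome 6 held a pair of sites with equal values, at 15766879 to 15767086 and at 16104234 to 16104526. Each had a fold of 4.35 in replicate 1 and 4.16 in replicate 2, from a pileup of 16 in both lists (9.15 to 26.0), with summits 2 and 4 bp apart. Both stood at or within 1.01 times the lowest background. Equal values are common at such low pileups, and these sites cannot be ranked against each other.

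In the other 8 windows the leading shared peak was weaker, with a lower fold between 3.20 and 3.84. Those of chromosomes 1, 5 and 12 did not count as shared at an overlap of 50% of both peaks, and that of chromosome 12, with summits 212 bp apart, did not with summits within 100 bp. The chromosome 5 site, 11709349 to 11710020, had folds of 3.84 and 3.94. The chromosome 9 site, 4173143 to 4173317, had folds of 3.76 and 3.83. The chromosome 7 site, 12001882 to 12002079, was 98.0 kb from the stated centromere and had folds of 4.09 and 3.69. The chromosome 8 site at 13069063 to 13069269 was higher in replicate 2, with folds of 3.59 and 4.48 from pileups of 21 and 25. The leading sites of chromosomes 3, 11, 12 and 1 had lower folds of 3.45, 3.29, 3.20 and 3.20. In 8 of the 12 windows the leading site had a pileup under 20 in both lists, and a pileup of 16 has an interval from 9.15 to 26.0, and their pileup intervals overlapped.

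The member nearest to an edge in replicate 1, on chromosome 1, had a fold of 3.07 and lay 616 bp inside, and the nearest peak outside, on chromosome 5, had a fold of 2.81 and lay 663 bp from the edge. In replicate 2 the nearest peaks, on the same chromosomes, had folds of 3.45 inside and 3.45 outside. The inside peaks were partners of each other, with summits 105 bp apart. The outside peaks, at 10899303 to 10899515 in replicate 1 and at 10899227 to 10899377 in replicate 2, also overlapped each other. Their overlap fell just short of the bound for a partner, so neither counted as shared. These peaks therefore show no contrast in sharing across the edge.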

How the data were processed

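Peaks of 2 OsWRKY11-Halo DAP-seq libraries, each called against 1 GFP-Halo library, were analysed, grouped by the sample titles and the labels' treatment text, where the control's title (DZZ) is spelled DDZ. MACS2 2.2.7.1, BWA 0.7.12-r1039 and Trimmomatic 0.36 are named in the submitters' processing notes without role or options. Depth, build and filtering of reads were not given in the sources used here. Pileup, as deposited, is a coverage signal in fragments. Fold enrichment, as deposited, is a ratio: pileup over background, each raised by 1. The deposited p-values and q-values are on the −log10 scale, and p recomputed from pileup and fold differed by less than 0.01 from it in 100% of peaks of each list.

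The GFP-Halo background was computed as pileup plus 1, over fold, minus 1. Peaks within 0.001 of its minimum (2.91 and 3.06 fragments) were on the lowest background. Chromosome ends were set at the last peak. Partners overlapped by at least 50% of the shorter peak, with the nearest summit taken. Densities have exact Poisson intervals, density ratios exact conditional binomial intervals, shares Wilson intervals and odds ratios conditional exact intervals, at 95% and without p-values. With 1 list per library and a shared control, no test over samples was possible. The counting steps were tested on simulated lists. Sites named are the shared peak with the highest lower fold in each window and the 5 highest over all. The rule for members used positions only, but members, lists and bounds, such as the pileup of 40, were chosen with earlier results of these data known. Calculations used scipy 1.17.1, statsmodels 0.14.6, pandas 2.3.3, numpy 2.4.6 and matplotlib 3.10.9 under Python 3.11.15.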

Additional observations from a re-analysis of the deposited data

How the results depend on the processing

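The density ratio stayed below 1, with its interval, in all 30 alternatives of each list, with values of 0.582 to 0.852 in replicate 1 and 0.400 to 0.797 in replicate 2. The single pileup classes were not among these alternatives. There the ratio was 1.54 and 1.65 at pileups of 20 to 39, and 2.60 and 2.5 at 40 and above. At pileups of 15 to 19 in replicate 1 it was 0.797 (0.623 to 1.01). Leaving out each chromosome moved the density ratio of all peaks between 0.712 and 0.752, and between 0.717 and 0.738. The partner odds ratio stayed below 1, but its interval reached 1 at windows of 0.5 Mb to either side (0.776 and 0.820) and of 1 Mb (0.816 and 0.830), under the q-value bound of 0.05 (0.859 and 0.927), at an overlap of 50% of both peaks (0.923 and 0.928), with summits within 100 bp (0.869 and 0.875), and in replicate 2 at a fold of at least 3 (0.719) and stratified by fold class (0.853). The odds ratio of high pileups reached 1 in replicate 2 at a fold of at least 3 (2.04) and in replicate 1 without chromosomes 2 and 4 (1.38), and was 6.19 and 5.73 within 1 Mb. That of the lowest background reached 1 in replicate 1 at a pileup under 40 (0.886), without chromosome 4 (0.895) and without chromosomes 2 and 4 (0.905). The difference of median folds in replicate 2, windows minus rest, was -0.0919 under that q-value bound and -0.0913 at a fold of at least 3. The variance over mean of the window counts was 2.45 in replicate 1 at 1 Mb, and 2.62, 1.68 and 1.61 in replicate 2 at 0.5, 1 and 2 Mb. Stricter lists and narrower windows hold fewer peaks; the cause of the other differences was not tested. Of 39 combinations of named site and partner definition, 5 left the site without a partner: chromosomes 1, 5, 10 and 12 at 50% of both peaks and chromosome 12 with summits within 100 bp. The density ratios by fold class, by background and by arm, and all values without chromosomes 2 and 4, were chosen after seeing the data. Leaving out a replicate leaves no partner share. No paired analysis was possible because both lists were called against the same GFP-Halo sample. The median pileup of 11 limits what can be said of single peaks.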

Other observations

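Stretches free of peaks in either list were longest near the stated centromere on 7 of the 12 chromosomes, where the windows make up 9.65% of the length. Whether reads could be placed in such stretches was not known. The longest in a window was 173311 bp on chromosome 3, from 18962914 to 19136224, and the next was 160714 bp on chromosome 11, from 12449837 to 12610550. On chromosome 1 a stretch of 141970 bp from 16541102 to 16683071 ended 16.9 kb before the stated centromere. On chromosomes 2, 4, 5, 6 and 12 the longest such stretch lay outside the window. There the longest were 109638, 137018, 149273, 111208 and 145106 bp, and the longest with their middle in the window were 105389, 111259, 121886, 94981 and 119740 bp.

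Neighbouring summits within 1 kb were found for 10.9% of window peaks in replicate 1, against 15% in the rest (odds ratio 0.690, conditional exact interval 0.565 to 0.836). In replicate 2 the shares were 14.6% against 15.8% (odds ratio 0.909, 0.782 to 1.05), and the interval reached 1. The difference between the lists was not tested.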
